A study of Mus musculus with 3 samples.

Results

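Erythroblastic islands are the units in which red cells mature in fetal liver, and 10 mouse genes that act in them were followed here in DNase-seq of E13.5 liver. The 10 genes were taken by name from a fixed list, out of 21911 protein-coding genes of the annotation. They fall into 3 groups: Icam4, Itga4 and Maea on the erythroblast side, Itgb1, Cd47 and Cd44 as adhesion and recognition genes that many blood cells use, and Vcam1, Csf1r, Adgre1 and C1qa on the macrophage side. All samples were of 1 group, liver tissue of embryos aged 13.5 days, of strain C57BL/6N,129, labelled with an HS2 HS3 deletion and a homozygous globin mutation. There were 3 biological replicates and no embryos without the mutation among the samples analysed here, so nothing below compares genotypes. The 3 replicates have separate biosample labels but share 1 strain donor label, and no label says whether they came from separate embryos or litters.

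An erythroblastic island is a central macrophage ringed by erythroblasts, which divide, fill with haemoglobin and expel their nuclei while attached to it. Erythroblasts hold on through an integrin made of the chains encoded by Itga4 and Itgb1, whose ligand on the macrophage is Vcam1, and through Icam4, which binds macrophage integrins containing the Itgav chain. Maea, the erythroblast macrophage protein, is found on both cells and is also a subunit of a ubiquitin ligase. The macrophage engulfs the expelled nuclei, and Cd47 on red cells is the signal, read by Sirpa, that spares the intact cell. In DNase-seq, the enzyme cuts DNA where chromatin is open, so an active promoter or enhancer shows as a peak of cuts, and a bound protein can leave a short protected gap, a footprint, inside the peak.

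The deposited files hold 2 peak lists for each replicate, a shorter list of 28209 to 57314 peaks and a longer one of 43508 to 84336, and 126616 to 194898 footprints. Replicate 1 had the fewest of each and replicate 2 the most. The signal of a peak is the authors' depth-normalized cut density at its highest point, and its values are whole multiples of 1 step, of 0.0126, 0.00837 and 0.00753 in replicates 1, 2 and 3. If 1 step is 1 cut, the smaller steps of replicates 2 and 3 go with deeper libraries than that of replicate 1. A promoter is called open here when a shorter-list peak lies no more than 500 bp from 1 of the gene's annotated starts. The signal given for it is that of its strongest such peak. All 5 erythroid marker genes read here (Gata1, Klf1, Tal1, Epor and Slc4a1) were open in all 3 replicates, and 0 of 5 hepatoblast markers were. Over all protein-coding genes the share open in all 3 replicates was 50.9%.

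The regions in which the footprints carry most of the adhesion and macrophage results are shown first, as the forward strand of mm10, 200 bases each, in capitals where a footprint covered the base in at least 2 of the 3 replicates. They are the Itga4 promoter (chr2:79255221-79255420, just before the most upstream start), the Itga4 site in intron 2 (chr2:79265736-79265935), the site downstream of Maea within Uvssa (chr5:33393911-33394110), the Cd44 site in intron 15 (chr2:102829311-102829510), and the pair of sites before Adgre1 (chr17:57334831-57335030 and chr17:57335771-57335970). None of the 6 windows overlaps an annotated exon.
Itga4 promoter: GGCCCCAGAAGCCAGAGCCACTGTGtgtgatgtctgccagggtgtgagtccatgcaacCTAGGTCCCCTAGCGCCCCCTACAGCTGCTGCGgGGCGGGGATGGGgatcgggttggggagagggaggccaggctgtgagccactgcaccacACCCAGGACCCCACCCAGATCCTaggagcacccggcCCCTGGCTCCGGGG
Itga4 intron 2: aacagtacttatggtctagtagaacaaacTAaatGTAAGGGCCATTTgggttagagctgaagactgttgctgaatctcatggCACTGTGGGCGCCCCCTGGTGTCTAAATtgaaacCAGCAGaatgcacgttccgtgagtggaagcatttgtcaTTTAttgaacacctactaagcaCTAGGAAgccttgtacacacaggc
Maea downstream: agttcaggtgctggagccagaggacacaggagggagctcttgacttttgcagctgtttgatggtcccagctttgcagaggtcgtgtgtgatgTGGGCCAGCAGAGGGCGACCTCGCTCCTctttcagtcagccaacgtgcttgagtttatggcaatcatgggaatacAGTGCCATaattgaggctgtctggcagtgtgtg
Cd44 intron 15: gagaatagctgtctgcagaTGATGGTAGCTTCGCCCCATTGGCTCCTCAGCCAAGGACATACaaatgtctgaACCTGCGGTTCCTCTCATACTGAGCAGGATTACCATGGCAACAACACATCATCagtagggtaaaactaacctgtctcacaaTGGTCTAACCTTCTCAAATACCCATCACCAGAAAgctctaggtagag
Adgre1 upstream far: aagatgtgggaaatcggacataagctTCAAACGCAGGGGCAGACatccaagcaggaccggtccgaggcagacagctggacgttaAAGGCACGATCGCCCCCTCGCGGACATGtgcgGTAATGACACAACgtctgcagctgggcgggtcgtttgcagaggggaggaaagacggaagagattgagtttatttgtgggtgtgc
Adgre1 upstream near: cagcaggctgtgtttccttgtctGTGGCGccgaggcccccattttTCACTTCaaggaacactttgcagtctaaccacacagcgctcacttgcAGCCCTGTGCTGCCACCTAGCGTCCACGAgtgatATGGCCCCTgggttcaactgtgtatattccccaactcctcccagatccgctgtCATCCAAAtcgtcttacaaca

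All 3 erythroblast-side genes and all 3 widely used genes were open in each of the 3 replicates, and 0 of the 4 macrophage-side genes were. Across all protein-coding genes, 50.9% were open in all 3 replicates, and the single replicates gave 51.4%, 57.5% and 55.5%. Of the 12 possible macrophage-side values, 4 genes in 3 replicates, 1 was present, that of Vcam1 in replicate 2. With the longer list, against a share of 55.7% of all genes, the macrophage side had 1 of 4 open, again Vcam1. In whole liver, fewer cells of a type and less open chromatin per cell cannot be told apart, and an open promoter is not a measure of RNA.

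**Figure D1:**
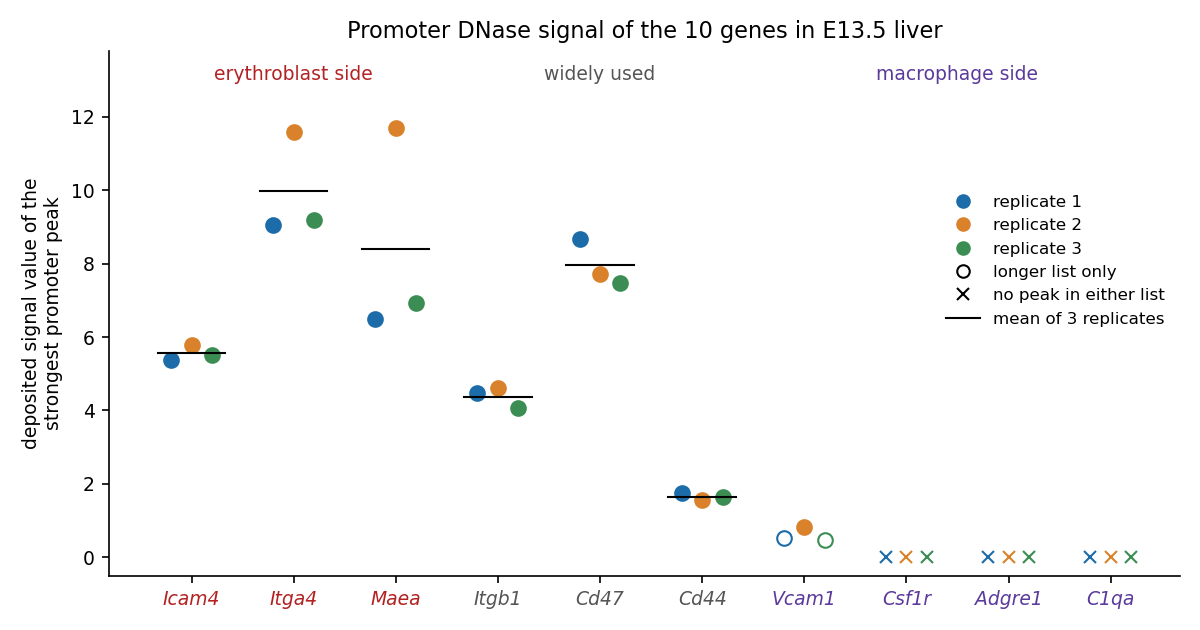
Deposited signal of the strongest promoter peak (y axis, linear from 0) for the 10 genes (x axis), 1 point per replicate, with a bar at the mean of the 3 replicates where all have a shorter-list peak. Open circles are peaks of the longer list only and crosses mark no peak in either list. The erythroblast side lies between 5.38 and 11.7, the widely used genes between 1.57 and 8.68, and 3 of the 4 macrophage-side genes have crosses only.

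Itga4 encodes the alpha chain of the integrin with which erythroblasts bind Vcam1. It lies on the forward strand at chr2:79255426-79333123. Its promoter signal was 9.06, 11.6 and 9.2 in replicates 1, 2 and 3 (9.97 ± 1.46, SD, n = 3), the highest mean of the 10 genes. Replicate 2 stood above the other two, and in each replicate the peak was stronger than 84.9%, 79.8% and 86.9% of all open promoters. The strongest peak spanned 220 to 240 bp and ended within a few bases of the most upstream start, so that the window printed above lies in the promoter proper and not in the transcript. Each replicate also had a weaker peak beyond the first start, not at the same place in all 3, of 1.86, 0.611 and 1.94.

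Maea, on the forward strand at chr5:33335509-33373296, had promoter signals of 6.5, 11.7 and 6.93 (8.39 ± 2.91, SD, n = 3). Replicate 2 was again the highest, and the other two lay close together. Divided by the replicate's median over all open promoters, the same values were 1.29, 2.11 and 1.49. Most of this opening sat at the 3 most upstream starts. At the next start, 0.676 kb further in at position 33336185, the signal was 1.37, 1.42 and 1.36, and at the start at 33371597 near the end of the gene a peak was listed in replicates 2 and 3 only (0.92 and 0.738).

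Icam4, a small erythroid adhesion glycoprotein whose human counterpart carries the Landsteiner-Wiener antigen, is encoded at chr9:21029373-21030595 on the forward strand. Its promoter signal was 5.38, 5.79 and 5.5 (5.56 ± 0.211, SD, n = 3). The 3 replicates were the closest of the erythroblast side, and the peak was stronger than 53.9%, 51.4% and 58.8% of open promoters. Icam4 therefore sat near the middle of all open promoters, while Itga4 was among the stronger ones.

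Cd47, the signal that spares a cell from engulfment, spans chr16:49800533-49915010 on the forward strand and has 2 open start sites far apart. The cluster of starts from 49855366 to 49855787, which holds the RefSeq start, gave 8.68, 7.71 and 7.47 (7.96 ± 0.639, SD, n = 3). The most upstream annotated start, 54.8 kb before it, gave 2.21, 6.47 and 2.22, with replicate 2 far above the other two. At both places every replicate had a peak, and in each replicate the downstream cluster was the stronger.

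Itgb1, the beta chain that pairs with Itga4 and with many other alpha chains, lies at chr8:128685654-128733200 on the forward strand. Its promoter signal was 4.47, 4.6 and 4.08 (4.38 ± 0.274, SD, n = 3), stronger than 44.1%, 43.7% and 44.3% of open promoters. The peak was broad, at 820 bp in replicate 1, 360 bp in replicate 2 and 540 bp in replicate 3. The start inside the gene at 128724333 had no peak in any replicate.

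Cd44, a receptor for hyaluronan, lies at chr2:102811141-102901665 on the reverse strand. Its promoter signal was 1.75, 1.57 and 1.63 (1.65 ± 0.0906, SD, n = 3), stronger than only 14.8%, 20.7% and 19.4% of open promoters. It was the weakest of the 6 open genes in every replicate.

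In order of mean signal the open genes ran Itga4, Maea, Cd47, Icam4, Itgb1 and Cd44. Maea overlapped both of its neighbours: the lowest value of Itga4, 9.06, lay below the highest of Maea, 11.7, and Maea was above Cd47 in 1 of 3 replicates. Itga4 and Cd47 did not overlap, since the highest value of Cd47 was 8.68. From Cd47 downwards the neighbours did not overlap. The lowest value of Cd47 was 7.47 against a highest of 5.79 for Icam4, the lowest of Icam4 was 5.38 against 4.6 for Itgb1, and the lowest of Itgb1 was 4.08 against 1.75 for Cd44, so that both chains of the integrin were open but at unequal signals. Signals of different promoters are compared here as cut densities and say nothing of the amounts of protein.

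Vcam1, the macrophage ligand of that integrin, lies at chr3:116109949-116129688 on the reverse strand. Its only shorter-list peak was 0.837 in replicate 2, 280 bp wide, stronger than 11.4% of the open promoters of that replicate. With the longer list each replicate had a peak at the same place, of 0.529, 0.837 and 0.467 (0.611 ± 0.198, SD, n = 3), which are 42, 100 and 62 steps of the signal scale. All 3 values lay below the weakest value of the 6 open genes, the 1.57 of Cd44. Of the 2762 bases within 500 bp of its starts, 186, 399 and 223 had a cut density called above background at a false discovery rate under 0.05, and the lowest rate reached was 0.013, 1.05e-09 and 0.00161.

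Csf1r, the receptor for the growth factors Csf1 and Il34 on which macrophages depend, lies at chr18:61100598-61132149 on the forward strand. It had no promoter peak in either list in any replicate. The same held for Adgre1, which encodes the F4/80 antigen used to stain mouse macrophages and lies at chr17:57358691-57483527 on the forward strand, and for C1qa, a chain of the complement protein C1q at chr4:136895917-136898803 on the reverse strand. In the finer files, 0 of 2309 bases around the Csf1r starts, 0 of 1024 around those of Adgre1 and 0 of 1001 around that of C1qa reached a false discovery rate under 0.05 in any replicate. For comparison, the Icam4 window of 1082 bases had 761, 933 and 829 such bases. Sequence that occurs more than once in the genome was scarce at the most upstream starts. Of the 32-base words within 500 bp of them, 97.4% occurred once for Vcam1, 93.6% for Csf1r, 97.6% for Adgre1 and 100% for C1qa. For Cd47, which was open, the share was 93.8%. Other starts, such as those of Csf1r from 61105572 to 61105879, were not checked in this way.

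The distance of 500 bp decided few of these calls. The closest peak left out lay 506 bp from a start of Itga4 in replicate 2 (signal 1.14), and that gene was open by other peaks, of which the farthest counted in that replicate lay 435 bp from a start. For Cd44 the nearest peaks left out were 640, 766 and 606 bp away (0.706, 0.552 and 0.829). For the macrophage-side genes without a peak the nearest one was at least 2747 bp away, at Csf1r in replicate 2.

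Promoters rich in CpG are open in most tissues, and the groups of genes differed in this. The CpG ratio, the observed over the expected number of CpG in the 1001 bases around the most upstream start, had a median of 0.552 over all genes. Of the genes below that median 19.7% were open in all 3 replicates, and of those above it 82%. Among the 10 genes, Maea (0.844) and Itgb1 (0.928) lay above the median and both were open. The other 8 lay below it, and of these Icam4 (0.445), Itga4 (0.466), Cd44 (0.338) and Cd47 (0.202 at its most upstream start) were open, while Vcam1 (0.279), Csf1r (0.189), Adgre1 (0.115) and C1qa (0.266) were not open in all 3 replicates. For Csf1r this start, at 61100598, lies before a cluster of starts from 61105572 to 61105879, at which the ratio was not computed. The macrophage side thus had low CpG ratios at the most upstream starts. The part of the CpG ratio in its lack of promoter peaks was not tested. At its most upstream start Cd47 had a peak in each replicate (2.21, 6.47 and 2.22), at a ratio within the range of these 4 genes. The ratio was not computed at its stronger cluster of starts, 54.8 kb further in, so it does not describe the main opening of Cd47.

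**Figure D2:**
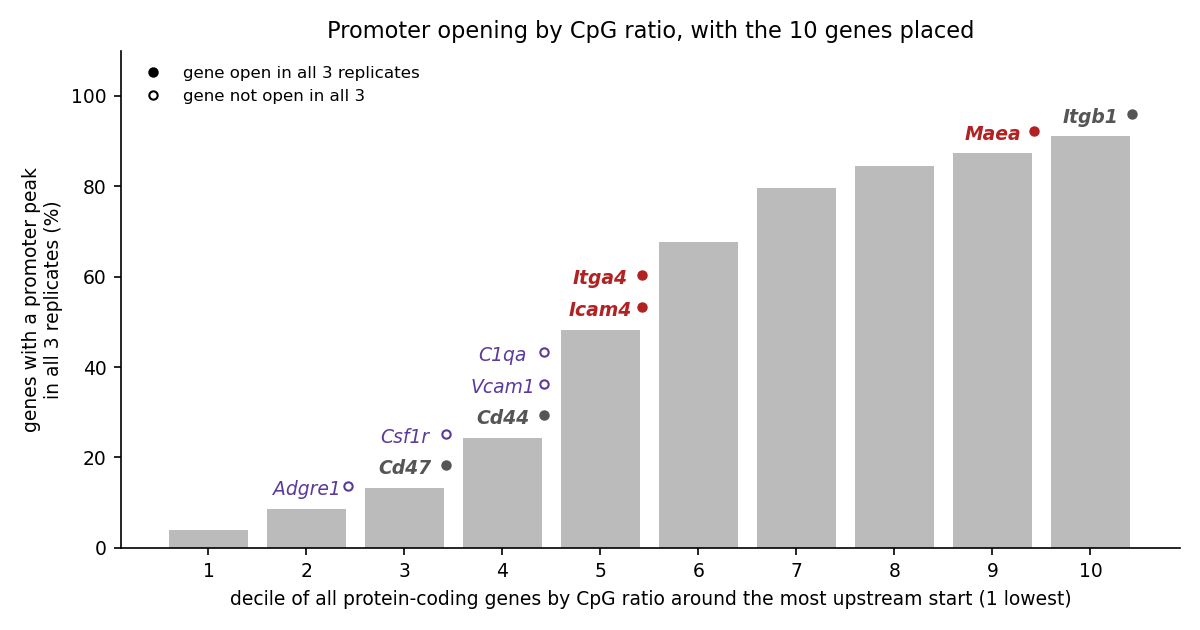
Percent of genes with a promoter peak in all 3 replicates (bars, y axis from 0) in each decile of all protein-coding genes ranked by CpG ratio (x axis). The names stand above the decile each of the 10 genes falls in, with a filled dot where the gene was open in all 3 replicates. Genes are placed by their most upstream start, which for Cd47 is not the strongest. For Csf1r it lies before a cluster of starts at which the ratio was not computed. The 4 macrophage-side genes lie in deciles 2 to 4, where 8.67% to 24.3% of genes were open, and Icam4 and Itga4 in decile 5, with 48.3%.

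Distal regions were taken as shorter-list peaks over 1 kb from any annotated start, joined over replicates where they overlapped, lying in the gene or within 50 kb of one of its starts. Of the 10 genes, 8 had at least 1 such region present in all 3 replicates, against 45.9% of all protein-coding genes, whose median was 0 regions. A long gene, such as Cd47 (114 kb) or Itga4 (77.7 kb), is searched over more sequence. The counts and the shares of genes with fewer regions are not corrected for this. The erythroblast side had 5 regions in all, the widely used genes 6 and the macrophage side 3. The order of the sides did not hold with the longer list, where the counts were 5, 10 and 8. Without replicate 1 they were 6, 11 and 7, but that asks for presence in replicates 2 and 3 only, a weaker condition. A region near a gene is not shown to act on it, and several lay inside or nearer to another gene. Their signals are read beside the medians over all 8810 distal regions present in all 3 replicates, which were 1.59, 1.95 and 1.68.

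The region of Icam4 lay downstream of the gene, at chr9:21030781-21031051, and was among the strongest found here, with 3.69, 6.41 and 3.91. It was stronger than 90.5%, 94.6% and 91% of all such regions. It stands in the short gap between Icam4 and Icam5, 1.02 kb from the start of Icam5, just past the 1 kb limit.

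Itga4 had 3 regions in all 3 replicates, more than 89.4% of genes. At 1.45 kb before the gene, chr2:79253761-79254191, the signals were 1.54, 1.65 and 1.27. Inside intron 2, chr2:79259441-79259711 had 1.34, 3.23 and 1.43, with replicate 2 well above the others, and chr2:79265741-79265931, printed above, had 2.15, 2.84 and 2.23. That last site was the steadiest of the 3 in rank, stronger than 69.3%, 70.9% and 69.3% of distal regions. Maea had 1 region, chr5:33393901-33394120, beyond its own end and inside Uvssa, with 1.49, 1.79 and 1.59. It lay 58.5 kb from the most upstream start of Maea and was counted through the start at 33371597, 22.4 kb away. A start of Uvssa was nearer, at 15.1 kb. No distal region inside Maea was in all 3 replicates; 1 in its intron 1 was listed in replicates 2 and 3 at 0.619 and 0.603.

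Cd47 had 4 regions in all 3 replicates, more than 94.8% of genes, and 13 in any replicate. Between its 2 open start sites, chr16:49839701-49840080 had 3.28, 6.28 and 3.57, again highest in replicate 2. In intron 8, chr16:49907441-49907620 had 1.74, 2.98 and 1.6. The other two, chr16:49769801-49770140 (1.79, 2.75 and 1.58) and chr16:49775121-49775760 (2.29, 2.28 and 1.73), lay before the gene, with the start of another annotated gene, Gm15518, nearer than that of Cd47.

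Cd44, whose promoter was the weakest of the open ones, had a stronger site inside the gene. In intron 15, 71.9 kb from the nearest start of Cd44, chr2:102829301-102829520 had 2.12, 4.95 and 4.32, above the promoter signal of the gene in each replicate. Replicate 1 was the lowest there, and its rank was lower too: the site was stronger than 68.2%, 89.9% and 93.1% of distal regions in replicates 1, 2 and 3. The 1 region of Itgb1, chr8:128709381-128709560 in intron 3, had 2.33, 2.39 and 2.23, the smallest relative spread of the widely used genes.

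Adgre1, with no promoter peak, had 2 strong regions side by side before the gene. They lay 23.8 and 22.8 kb before its start, in the gap between Vav1 and Adgre1. The far one, chr17:57334841-57335020, had 3.06, 3.16 and 3.27 (3.16 ± 0.104, SD, n = 3), and the near one, chr17:57335781-57335960, had 2.94, 3.66 and 3.02 (3.21 ± 0.399, SD, n = 3). They were stronger than 85.5%, 75.5% and 86.2%, and than 83.7%, 81.5% and 83.6%, of distal regions. No distal region lay inside Adgre1.

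Csf1r had 1 region in all 3 replicates, 32 kb before its first start at chr18:61068481-61068680 and inside the neighbouring gene Pdgfrb, with 2.58, 2.02 and 2.3. Within Csf1r itself, intron 2 is known to hold the enhancer called FIRE, on which expression of the receptor in macrophages depends. A weak peak was listed in that intron, at chr18:61108626-61108771, with 0.602 in replicate 2 and 0.701 in replicate 3, and the longer list also had it in replicate 1, at 0.693. No file used here gives the position of FIRE, so the peak cannot be assigned to it. The values of the 3 replicates lay close together, at less than the median distal signal.

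C1qa had no distal region in all 3 replicates. Replicates 2 and 3 shared 3 weak ones before the gene, at 8.46 kb (0.954 and 1.02), 25.9 kb (1.18 and 1.09) and 31.8 kb (1.18 and 0.595). Replicate 1, which has the fewest peaks, had none of the 3 in the shorter list and 2 of them, the last 2, in the longer list (1.18 and 0.832). The part of the smaller peak list in this was not tested. Vcam1 had no distal region in any replicate, and its nearest shorter-list peak outside the promoter window lay 112275, 86715 and 112395 bp away.

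**Figure D3:**
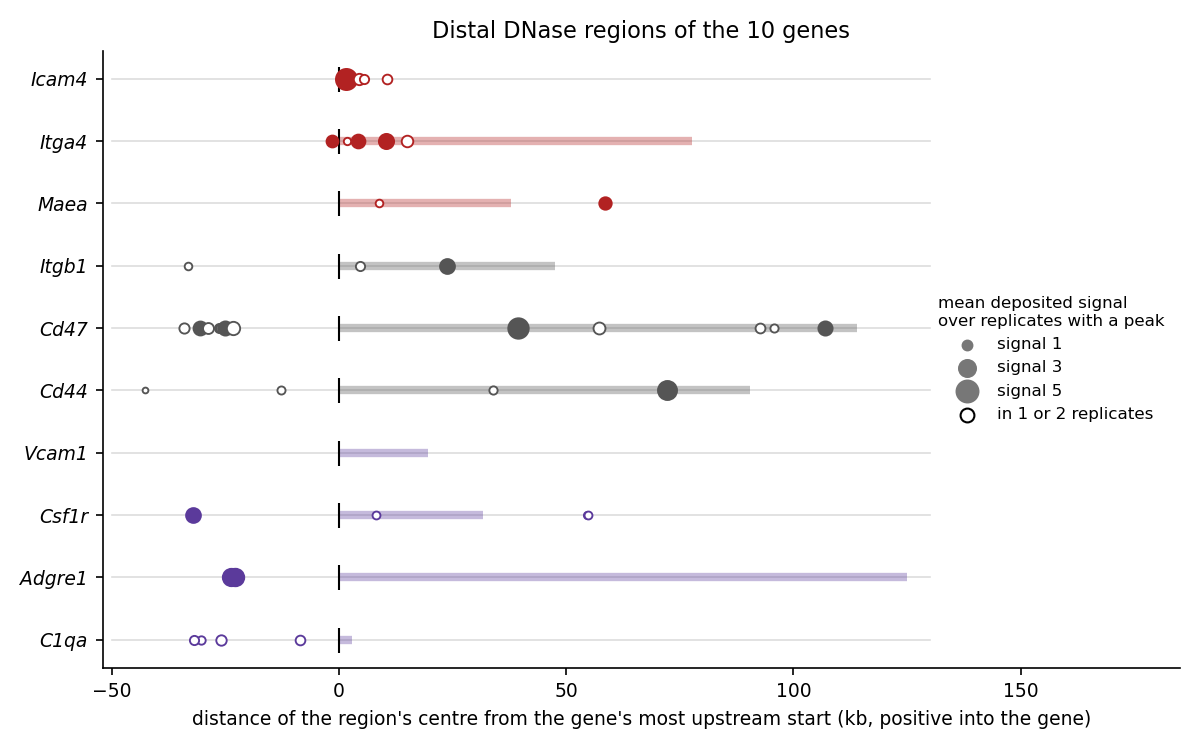
Distal regions of the 10 genes (rows) by distance from the gene's most upstream start in kb (x axis, positive into the gene), with the gene body as a shaded bar and the start as a tick. The area of a circle is the mean deposited signal over the replicates with a peak, and open circles were found in only 1 or 2 replicates. Regions in all 3 replicates lie inside Itga4, Itgb1, Cd47 and Cd44, while those of Csf1r and Adgre1 lie only before the gene.

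Footprints were found in the promoter peaks of all 6 open genes in each replicate. Their numbers were 8, 11 and 5 for Icam4, 4, 6 and 7 for Itga4, 7, 8 and 9 for Maea, 15, 6 and 9 for Itgb1, 10, 8 and 7 for Cd47 and 5, 8 and 11 for Cd44. The order of the replicates differed from gene to gene, and the counts inside the peaks overlapped between all 6 genes. Counted within 500 bp of a start instead, Cd47, with 2 open start sites, had 14, 21 and 16, above every value of Icam4 (9, 12 and 6), Itga4 (5, 7 and 10), Maea (9, 12 and 11) and Cd44 (5, 8 and 11). Itgb1, with 15, 11 and 12, overlapped Cd47. Inside the peaks Cd44 had as many footprints on average as Icam4, 8 each, with a weaker peak. Vcam1 had 0, 2 and 0 inside the peaks and 1, 2 and 0 within 500 bp of a start. Csf1r, Adgre1 and C1qa had 0 in every replicate by either count.

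Short motifs were sought on both strands in a window of 200 bases at each of the 6 open promoters and 14 distal regions, and a match was counted as footprinted where a footprint covered it to within 2 bp. A match is a description of the letters and not a shown binding site. The CTCF core AGGGGGC was footprinted in all 3 replicates at the Itga4 promoter (chr2:79255293-79255299), at the Itga4 site in intron 2 (chr2:79265828-79265834) and at the far Adgre1 site (chr17:57334926-57334932). All 3 matches are on the reverse strand and read GCCCCCT within the capitals of the printed sequences. The core is held by 14.8% of open promoters and 18.4% of the distal regions. By replicate, 61.3% to 71% of its matches in open promoters lay in a footprint, and 76.3% to 84.5% of those in distal regions, so a footprint there is usual. CTCF, which organises chromatin loops, occupies many of its sites in most cell types.

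A longer CTCF consensus of 13 letters, added after the sequences had been seen and allowing 2 letters to differ, matched in 7 of the 14 distal windows, while 62.7% of all 8810 distal windows hold such a match. By group these were 3 of 3 on the macrophage side, 3 of 5 on the erythroblast side and 1 of 6 among the widely used genes. With no letter allowed to differ the background falls to 20%, and 2 of 14 windows matched, those of Maea and of Csf1r. At each of the 7 windows a match touched a footprint in all 3 replicates. The macrophage-side regions in all 3 replicates were thus all windows with such a match, a property shared by most distal regions of the data.

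Other footprinted matches differed by gene. The promoter of Cd47 held the NRF1 motif GCGCNTGCG (chr16:49855615-49855623), found in 15.1% of open promoters, and 2 matches of the SP motif GGGCGG. SP matches footprinted in all 3 replicates were also present at Maea, 1, and Itgb1, 3, and 66.7% of open promoters hold the motif. The RUNX motif TGTGGT was footprinted in all 3 replicates at the Cd44 promoter, and 6.65% of open promoters hold the letters. By replicate, 14.6% to 17.8% of RUNX matches in open promoters lay in a footprint. For SP matches the range was 53.7% to 63.7%, and for NRF1 matches 82.5% to 84.6%. The intron 15 site of Cd44 held an NF-Y motif CCAAT (chr2:102829348-102829352) footprinted in all 3 replicates. Of distal regions 20.9% hold the motif, and by replicate 12.1% to 19.9% of these matches lay in a footprint. The intron 15 site also had the most footprinted bases of the windows examined, 130 of 200 in at least 2 replicates and 111 in all 3, as its capitals show.

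The erythroid motif AGATAA of GATA factors was in 0 of the 6 promoter windows and in 2 of the 14 distal ones, the first site in Itga4 intron 2 and that in Cd47 intron 8. Over all windows it was in 2.52% of open promoters and 14.1% of distal regions, and a footprint covered neither of the 2 matches in any replicate. By replicate, only 11.6% to 16.4% of all its distal matches lay in a footprint. The related form TGATAA was not sought, so these counts do not cover all GATA sites. Its letters, on either strand, stand in the distal window of Icam4. They also stand in the Cd47 windows before the gene and between its 2 open start sites, and no background share was computed. The PU.1 motif GAGGAAG, of the main myeloid factor, was at the Maea promoter with no footprint on it and in 0 of 14 distal windows, against 7.65% of distal regions. No match means only that these letters are not in these windows.

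The genes around the 10 were read in lists by the same rule. The Maea ubiquitin ligase complex, of which Maea is a catalytic subunit with Rmnd5a, was open in 10 of 10 genes, beside 50.9% of all genes. The 10 genes have CpG ratios of 0.617 (Ranbp10) to 1.14 (Ranbp9), above the median, where 82% of genes were open, so the count is near what such promoters show. Gid4, a substrate receptor of the complex, had 11.9, 17.9 and 10.7 and shares its start region with Atpaf2, Rmnd5a had 11.4, 15.3 and 10.6, and Ranbp9 had 2.76, 2.28 and 2.92. The list's median of the mean signal was 5.7, near the median of all open promoters, 5.03, 5.56 and 4.64 in replicates 1, 2 and 3. Over all genes the median was 0.827, but there a gene without a peak counts as 0.

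Other surface and integrin-partner genes of erythroblasts were open in 6 of 8, beside 50.9% of all genes. Cd24a, a small anchored glycoprotein, had the highest mean, 7.64 ± 0.477 (SD, n = 3). Tln1, talin, which links integrins to actin, had 7.35 ± 2.4 (SD, n = 3), with the start of Creb3 within 1 kb. Cd36, a scavenger receptor, had no peak in any replicate.

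Macrophage surface and uptake genes were open in 4 of 18, and 12 had no shorter-list peak in any replicate. Dnase2a, the nuclease that digests expelled nuclei and is also used outside macrophages, had 8.3, 14.2 and 7.68. Of the binding partners in this list, Itgav, a chain of the Icam4 receptors, had 1.79, 1.72 and 1.86, and Sirpa, the receptor of Cd47, had 1.44, 1.15 and 1.27. Siglec1, Cd163 and Timd4, surface markers of resident macrophages, and C1qb and C1qc, the partners of C1qa, lacked any shorter-list peak. Csf1r, Adgre1 and C1qa thus shared the lack of a promoter peak with most of this list. The share of the list that was open, 22.2%, lay below the 50.9% of all genes. The 4 open genes have CpG ratios of 0.568 to 0.853, above the median of 0.552, where 82% of genes were open. The others have 0.0981 to 0.286, below the median, where 19.7% were open. The part of the CpG ratio in this was not tested.

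Transcription factors of macrophages were open in 7 of 9, beside 50.9% of all genes and 82% of those above the median CpG ratio, where most of the open ones lie. Nr1h3, a sterol receptor, had 6.33, 8.02 and 6.04, in a start region shared with Acp2, and Zeb2 had 3.59, 2.78 and 2.87. Spi1, which encodes PU.1, had a shorter-list peak in replicate 3 only (1.29) and longer-list peaks in all 3 (1.01, 0.778 and 1.29). Spic, the factor of iron-recycling macrophages, had none. In a list of 6 ligands, not all of them ligands of the 10 genes, 2 were open, beside 50.9% of all genes. Fn1, fibronectin, had 1.99, 2.74 and 1.57 and Csf1 had 1.36, 0.996 and 1.02, while Il34 and Spp1 had no shorter-list peak. Spp1 had weak longer-list peaks of 0.226 and 0.271 in replicates 2 and 3.

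Markers of other liver cells were read beside the macrophage genes. Endothelial and stromal markers were open in 2 of 9, Col1a1 with 2.41 ± 0.386 and Pdgfra with 1.97 ± 0.407 (SD, n = 3), and Cdh5, Pecam1 and Emcn had no shorter-list peak. Hepatoblast markers were open in 0 of 5 in all 3 replicates, with single values up to 1.16 for Apoa1 in replicate 2, and Ttr had 0.731 and 0.954 in replicates 1 and 2. Alb and Afp had no shorter-list peak, but the longer list had Afp in replicates 1 and 2 (0.731 and 1.19) and Alb in replicate 3 (0.399). It also had Ttr in replicate 3 (0.49). By the longer list 1 of 5 hepatoblast markers, 3 of 9 endothelial and stromal markers and 1 of 4 macrophage-side genes were open in all 3 replicates. The share of all genes was 55.7%. Erythroid markers, 5 of 5 open, were led by Epor with 10 ± 3.01 and Tal1 with 5.91 ± 0.448 (SD, n = 3). The 0 of 4 macrophage-side genes thus stand beside 0 of 5 and 2 of 9 for the hepatoblast and the endothelial and stromal markers. The erythroid markers had 5 of 5. Over all genes 50.9% were open, and 19.7% of those below the median CpG ratio, where the 5 hepatoblast markers (0.17 to 0.393) lie. Of the erythroid markers only Tal1 (0.804) lies above that median. The parts of cell numbers and of the CpG ratio in this were not tested.

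**Figure D4:**
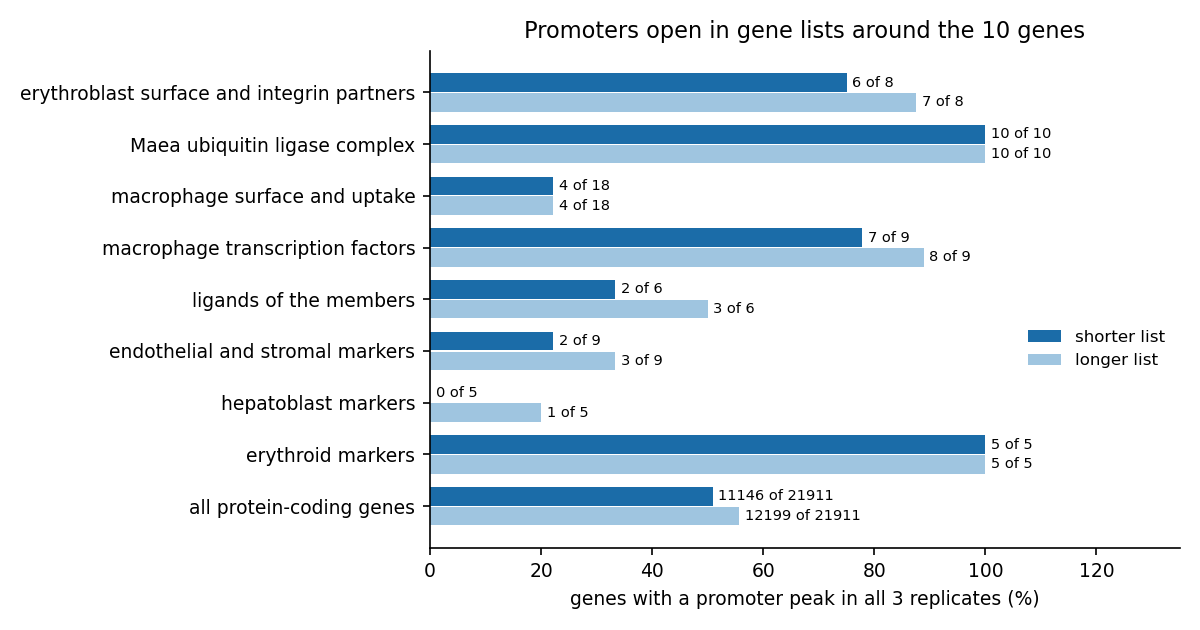
Percent of genes with a promoter peak in all 3 replicates (x axis, from 0) in each gene list (rows) and over all protein-coding genes, by the shorter and the longer peak list. The counts beside the bars give open genes of all genes in the list: 10 of 10 for the Maea complex and 4 of 18 for macrophage surface and uptake genes, beside 11146 of 21911 overall.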

How the data were processed

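DNase-seq of 3 E13.5 liver samples was analysed from the deposited files, on mm10 per the file headers and labels. The authors made each file from 1 sample alone; the sources used here name no aligner, peak caller or footprint caller. The deposited peak lists give a signal, the highest cut density normalized to read depth by the authors. The deposited footprints carry 1 false discovery rate threshold of 0.01, a q-value type limit, and the deposited cut rate files list stretches whose p-value type false discovery rate is below 0.05. Why the authors deposited a shorter and a longer list is not stated, and the shorter was used as the main one. Starts, exons and gene types came from GENCODE release M21 and sequences from RefSeq GRCm38.

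Peaks were assigned to starts (500 bp), joined across replicates (1 bp or more) and counted with Python 3.11.15, pandas 2.3.3 and numpy 2.4.6, with sequence read by pysam 0.24.0. These calls were checked on simulated peaks. A missing peak counts as 0 only in list means and where the text says so. No test between conditions was made, because there is 1 group, and SDs measure the spread of 3 samples that may share an embryo or a litter. All 10 genes are named. Of each list the 2 highest, up to 3 without a peak and fixed direct partners of the members are named. Members and lists were chosen with earlier results of these data known. The longer CTCF consensus, the check of repeated words and the share of open genes by decile of CpG ratio were added after seeing the data. No sequence is printed for Csf1r, nor for windows that overlap an exon. Of the erythroid marker list, 1 gene is not reported here.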

Additional observations from a re-analysis of the deposited data

How the results depend on the processing

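Promoter counts kept their value to within 1.5 times in 35 of 36 alternatives: another peak list, windows of 250 and 1000 bp, the most upstream start only, the upper 50% of peaks, equal numbers of peaks, and each replicate left out in turn. The exception was the macrophage side with the longer list, at 1 of 4 genes. Within that limit, the upper 50% of peaks took the widely used genes from 3 open to 2, and all members from 6 to 5. The mean promoter signal of Vcam1, with a missing peak as 0, was 0.279 and became 0.611 with the longer list and 0 without replicate 2. Counts of distal regions were less steady, with 23 of 30 within 1.5 times. On the erythroblast side 5 became 3 over 2 kb from any start and 2 among the upper 50% of peaks, and leaving out a replicate gave 5 to 6. For the widely used genes 6 became 10 with the longer list, and leaving out a replicate gave 6 to 11, the 11 without replicate 1. On the macrophage side 3 became 8 with the longer list and 7 within 100 kb, and leaving out a replicate gave 3 to 7, the 7 without replicate 1, which has the fewest peaks. Leaving out a replicate asks for presence in the remaining ones only, a weaker condition, so these rises follow in part from the rule. Any other cause was not tested. Counted within 500 bp of a start, mean footprints moved by over 1 SD for Itga4 (7.33), Maea (10.7) and Cd47 (17). No paired analysis was possible because the study has 1 group. A missing peak says that none was called at this depth, not that the chromatin is closed in every cell.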
